A study of Drosophila melanogaster with 12 samples.

Results

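Heads of isolated males were compared with heads of group-housed males by polyA RNA sequencing, to ask what a week alone changes in the transcripts of the male head. The comparison takes the 3 isolated and the 3 group-housed male libraries, 6 of the 12 in the series; the others are the same design in females. All flies were adult Drosophila melanogaster of the ORE-R genotype, a wild-type laboratory strain. Males lived with females for 3 to 5 days after eclosion and then spent 7 days either alone or in male groups of 25, and each library was made from 200 whole heads. Replicate 0 of each group belongs to batch 1 and replicates 1 and 2 to batch 2. Nothing in the labels ties the pools to separate cultures, and the spread behind the p-values may therefore be technical in part.

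A fly head holds the brain, the eyes and the sense organs of the antennae and mouthparts, with a layer of fat body around the brain. The head fat body secretes carrier proteins, storage proteins and antimicrobial peptides, and it takes part in amino acid and lipid metabolism. In males, social experience is known to shape aggression, courtship and sleep through olfactory and taste neurons and neuropeptides. In whole heads, fewer cells of a type and less RNA per cell cannot be told apart.

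The male libraries held 5312973 to 14535524 counts over features. The library with the highest total, isolated male replicate 1, is a column marked as merged in the deposited table, and what was merged is not given. The RNA roX1, which males use in dosage compensation, stood at 2239 to 3138 CPM (counts scaled to the size of the library) in males and at 106 to 160.2 CPM in females. Markers of photoreceptors, neurons and glia were present in all male libraries at sums of 21096 to 25671, 11678 to 14432 and 3760 to 4164 CPM.

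Group-housed male replicate 0, the only group-housed male library of batch 1, stood apart from the other 5. The 87 markers of testis and male reproductive tract (a list without EbpIII and gdl, which are high in all male heads) summed to 732 CPM there. The same sum was 42.6 and 76.3 CPM in the other group-housed libraries and 25.0, 26.3 and 36.9 CPM in the isolated ones. Of these 87 markers, 79 had at least 1 read in that library, against 25 to 49 in each of the others. A list of 30 gut proteases (without LManI) summed to 219 CPM there and to 0.941 to 5.88 CPM elsewhere, and 376 genes reached 1 CPM in it while staying under 0.2 CPM in every other male library. Results that rest on this library are given with and without it.

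Of 9774 genes that passed the expression filter, 14 (0.143%) differed between isolated and group-housed males at an edgeR adjusted p under 0.05. Isolated males had 6 of them higher (0.0614% of genes) and 8 lower (0.0818%). All 14 had the same direction in both batches. They were chosen by p in a fit of these same libraries, so this is no separate support. At an unadjusted p under 0.05 there were 295 genes (3.02%), fewer than the 489 that 5% of the genes would make. The count moved with the library left out. It was 76 without group-housed replicate 1, 68 without isolated replicate 2, 36 without isolated replicate 0, 24 without isolated replicate 1, 17 without group-housed replicate 0 and 13 without group-housed replicate 2. The balance of directions moved as well: 14 were higher and 3 lower without group-housed replicate 0, 14 and 62 without group-housed replicate 1, 2 and 11 without group-housed replicate 2, 18 and 18 without isolated replicate 0, 3 and 21 without isolated replicate 1, and 19 and 49 without isolated replicate 2. DESeq2 called 33 genes (0.338%) and limma-voom 33 (0.338%). Without group-housed replicate 0, 5 of the 14 were still called, and 2 of the others no longer passed the filter. Only 3 of the 14 were still called without group-housed replicate 2, although 13 genes passed there. Of the 14, 11 were kept without isolated replicate 0 and 9 without isolated replicate 1. All 14 were kept without group-housed replicate 1 and without isolated replicate 2. In a fit of all 12 libraries 8 of 9810 genes (0.0815%) passed, 5 of them among the 14. The genes that fell were close to absent from isolated males.

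**Figure D1:**
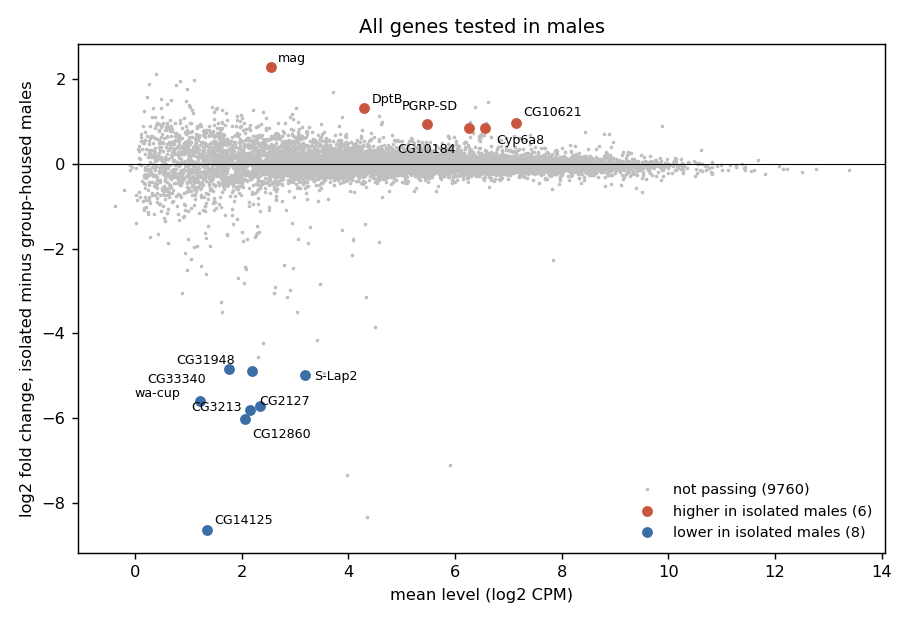
Log2 fold change (isolated minus group-housed males) against mean level (log2 CPM) for the 9774 genes tested, with the 6 higher and 8 lower genes that passed in colour. Fold changes of the lower genes are fitted values against levels near 0; the grey points below -7 are CG34324, CG34220 and Muc68D, which did not pass.

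The gene with the most even rise was CG10621, a predicted homocysteine S-methyltransferase, the class of enzyme that makes methionine from homocysteine. It is a protein-coding gene on arm 2L (18952206 to 18954431, minus strand; all positions are from the BDGP6.54 annotation). Its level was 97.3, 95.1 and 97.8 CPM in group-housed replicates 0, 1 and 2 and 186, 198 and 179 CPM in isolated replicates 0, 1 and 2. The groups did not overlap, and the spread within each was small beside the gap between them: 96.7 ± 1.42 against 188 ± 9.75 CPM (SD, n = 3 each). The fitted log2 difference was 0.96 (SE 0.15, edgeR adjusted p = 0.00581). The difference in log2 level was 0.93 in batch 1 and 0.96 in batch 2, and the call held with each of the 6 libraries left out in turn; over 19 alternatives the adjusted p ran from 5.25e-07 to 0.05. CG10184, a protein-coding gene on arm 3R (23602507 to 23605495, minus strand), stood at 39.6, 70.3 and 56.3 CPM in group-housed and 74.8, 122 and 99.4 CPM in isolated males. Each isolated library was above every group-housed one, and the fitted log2 difference was 0.85 (SE 0.15, edgeR adjusted p = 0.0178). Leaving out group-housed replicate 0 or 2, or isolated replicate 0 or 1, lost this call, at log2 fold changes of 0.77 to 0.81 and adjusted p of 0.0528 to 0.113; over all alternatives the adjusted p ran from 9.67e-06 to 0.877.

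CG10621 belongs to a list of 20 tested genes of the methionine cycle and methyl group transfer, through which methionine, folate and glycine metabolism meet. It was the only member that passed in edgeR; 4 members passed in DESeq2 (with Gnmt, Nmdmc and CG3999) and 2 in limma-voom (with CG3999). In the list 16 members had a positive log2 fold change, against 49.5% of all genes tested, and the median was 0.18 beside -0.002 for all genes. In 5 members every isolated library exceeded every group-housed one, a pattern seen in 3.24% of all genes. Gnmt, glycine N-methyltransferase, which consumes S-adenosylmethionine, stood at 61.4, 67.2 and 73.6 CPM in group-housed and 96.5, 124 and 99.6 CPM in isolated males (log2 fold change 0.67, SE 0.15, edgeR adjusted p = 0.114). Nmdmc, a methylenetetrahydrofolate dehydrogenase of mitochondria, stood at 71.0, 83.5 and 86.2 against 97.7, 127 and 150.1 CPM (0.62, SE 0.15, edgeR adjusted p = 0.169). In both genes the groups were apart in all 9 pairs of libraries. The DESeq2 adjusted p was 0.0284 for Gnmt and 0.0404 for Nmdmc, and Gnmt passed in edgeR without isolated replicate 2 (0.75, adjusted p = 0.0303). Over 19 alternatives the adjusted p ran from 0.00151 to 1.00 for Gnmt and from 0.00367 to 0.742 for Nmdmc. CG3999, the glycine dehydrogenase of the glycine cleavage system, stood at 42.0, 69.6 and 29.5 CPM in group-housed and 128, 127 and 101 CPM in isolated males. Its gap was wider (log2 fold change 1.35, SE 0.30), and so was the spread of its group-housed libraries, and it did not pass in edgeR (adjusted p = 0.475). It passed in 9 of 19 alternatives, with adjusted p from 8.62e-13 to 0.705: among them DESeq2 (0.000109), limma-voom (0.0318), and edgeR without group-housed replicate 0 (1.21, adjusted p = 0.000156), group-housed replicate 1 (1.79, 3.03e-06) or isolated replicate 0 (1.21, 5.98e-05). Ahcy, which removes S-adenosylhomocysteine, was also apart, with 51.8, 43.8 and 58.0 CPM against 62.6, 79.8 and 63.9 CPM. Cbs, which takes homocysteine towards cysteine, had a log2 fold change of -0.18 with overlapping groups.

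Among genes of innate immunity, PGRP-SD and DptB rose. PGRP-SD is a secreted peptidoglycan recognition protein that acts upstream of the Imd pathway, which switches on antimicrobial peptides against Gram-negative bacteria. The gene lies on arm 3L (7651180 to 7651900, plus strand), shares bases with CG7492 on the opposite strand. The strand setting of the counting is not known, so such genes are uncertain. AttC, Gnmt, Nmdmc, Lsp2, tobi, apolpp, Or46a and tim are among the genes named in other places that have opposite-strand neighbours too. PGRP-SD stood at 23.1, 35.8 and 32.5 CPM in group-housed and 42.1, 66.2 and 67.8 CPM in isolated males. The groups did not overlap, and both batch 1 libraries were below their batch 2 counterparts. The fitted log2 difference was 0.94 (SE 0.15, edgeR adjusted p = 0.00683), with differences of 0.85 in batch 1 and 0.96 in batch 2. Without group-housed replicate 2 it was 0.88 with an adjusted p of 0.0573, and the call held without each of the others (4.89e-06 to 0.491 over 19 alternatives).

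DptB, which encodes the antimicrobial peptide Diptericin B, a classic Imd target, lies on arm 2R (18867391 to 18867895, plus strand) and overlaps CG43109 on the other strand. It stood at 6.13, 17.1 and 10.2 CPM in group-housed and 13.9, 42.8 and 26.8 CPM in isolated males. The groups overlapped as pools, because batch 1 was lower in both groups, while within each batch every isolated library was above every group-housed one. The fitted log2 difference was 1.31 (SE 0.25, edgeR adjusted p = 0.0250), with differences of 1.12 in batch 1 and 1.33 in batch 2. It was 1.09 without group-housed replicate 2 (adjusted p = 0.245) and 1.07 without isolated replicate 1 (adjusted p = 0.307), where the call was lost; over 19 alternatives the adjusted p ran from 1.94e-06 to 1.00.

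Other genes for inducible antimicrobial peptides had values in the same direction and did not pass in edgeR; in DESeq2, 4 effectors passed (DptB, AttC, AttB and Dro). Of 10 tested attacins, cecropins, diptericins, defensin, drosocin, drosomycin and metchnikowin, 8 had a positive log2 fold change, and the median was 1.05. An unadjusted p under 0.05 with a higher level was found in 7 of them, against 1.84% of all genes. AttC, an attacin, stood at 40.4, 79.4 and 31.8 CPM in group-housed and 83.1, 174 and 179 CPM in isolated males (log2 fold change 1.46, SE 0.34, edgeR adjusted p = 0.701). Its groups were apart, with differences of 1.03 in batch 1 and 1.80 in batch 2. AttC passed in 7 of 19 alternatives, with adjusted p from 1.56e-12 to 1.00: among them DESeq2 (2.98e-05) and edgeR without group-housed replicate 0 (1.68, adjusted p = 4.13e-09), group-housed replicate 2 (1.10, 0.00402) or isolated replicate 0 (1.68, 3.05e-09). AttA and AttB, neighbouring and near-identical attacin genes whose reads may be split between them, had log2 fold changes of 0.99 and 1.11. AttA passed in edgeR without group-housed replicate 0 or 1 or isolated replicate 0 (adjusted p 0.00956 to 0.0226; 0.000178 to 1.00 over its alternatives). AttB passed without group-housed replicate 1 or isolated replicate 2 (0.0281 and 0.0370; 0.00155 to 1.00 over its alternatives). By contrast, of 14 Bomanin and Daisho genes, short peptides controlled by the Toll pathway, 4 had a positive value and the median was -0.08. BomS6 stood at 12.5, 15.4 and 13.7 CPM in group-housed and 8.59, 8.09 and 5.48 CPM in isolated males, and the groups were apart (log2 fold change -0.88, SE 0.28, edgeR adjusted p = 0.732). The whole list of 30 tested effectors had a median of 0.04; it was 0.30 without group-housed replicate 1 and 0.15 without isolated replicate 2, and -0.005 to 0.01 without each of the others.

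Genes of recognition and immune signalling had small positive values. Of 41 tested, 33 had a positive log2 fold change, the median was 0.11, and PGRP-SD alone passed, in edgeR as in DESeq2. All 8 tested PGRP genes were positive, with a median of 0.23. PGRP-SB1, a secreted amidase that cleaves peptidoglycan, stood at 53.3, 90.7 and 69.0 CPM in group-housed and 93.1, 102 and 133 CPM in isolated males (0.64, SE 0.16, edgeR adjusted p = 0.221; 0.0322 without group-housed replicate 1 and 0.00268 to 1.00 over its alternatives). The inhibitor pirk, which dampens Imd signalling, stood at 12.1, 10.3 and 11.1 against 15.8, 18.7 and 14 CPM (0.54, SE 0.24, edgeR adjusted p = 1.00). Tep1, a thioester-containing protein of the complement-like family, stood at 5.19, 2.05 and 1.83 against 8.43, 6.05 and 5.48 CPM (1.23, SE 0.40, edgeR adjusted p = 0.802). Each of these had its isolated libraries above its group-housed ones, as had 7 of the 41 tested members in all, beside 3.24% of all genes. Hemocyte markers, which could carry immune transcripts, summed to 2316 to 4973 CPM in group-housed and 2512 to 4154 CPM in isolated males, and their part in these values was not tested.

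**Figure D2:**
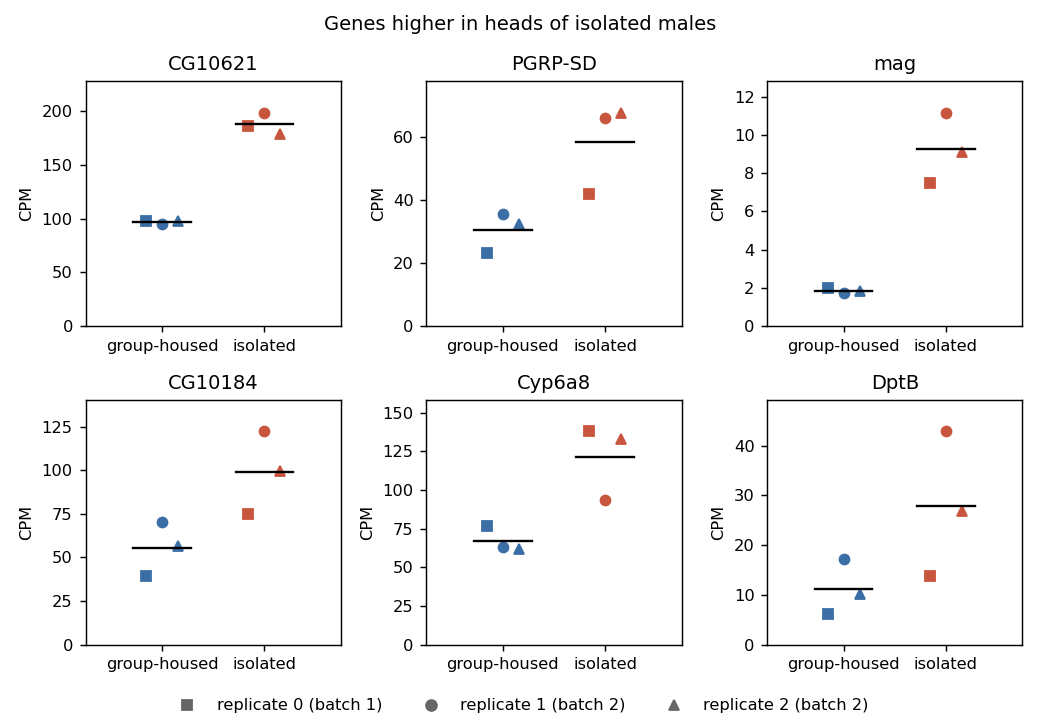
Level (CPM) in each male library of the 6 genes that were higher in isolated males; squares are replicate 0 (batch 1), circles and triangles replicates 1 and 2 (batch 2), and bars the means of 3 libraries. The groups are apart in 5 genes and overlap in DptB, from 6.13 to 17.1 CPM in group-housed and 13.9 to 42.8 CPM in isolated males.

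The largest fold rise was that of mag (magro), a lipase that acts in gut lipid digestion and cholesterol ester breakdown. The gene lies on arm 3L (20460683 to 20462274, plus strand) and was low, at 2.00, 1.71 and 1.83 CPM in group-housed and 7.48, 11.2 and 9.13 CPM in isolated males. Every isolated library was well above every group-housed one, and the fitted log2 difference was 2.28 (SE 0.39, edgeR adjusted p = 0.00980). It was 2.22 without group-housed replicate 2 (adjusted p = 0.113) and 2.14 without isolated replicate 1 (adjusted p = 0.102), with 1.4e-05 to 0.393 over 19 alternatives. In group-housed replicate 0, where gut proteases were high, mag stood at 2.00 CPM, beside 1.71 and 1.83 CPM in the other group-housed libraries. Which tissue the mag reads came from was not tested. Of 17 tested genes of lipolysis and fatty acid oxidation, mag alone passed, 8 were positive and the median was -0.002. The triglyceride lipase bmm, the fly relative of adipose triglyceride lipase, stood at 93.4, 109 and 84.9 CPM against 109.7, 119 and 110.4 CPM (0.24, SE 0.15, edgeR adjusted p = 1.00).

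Among detoxification genes, Cyp6a8, a cytochrome P450 induced by xenobiotics, rose. It lies on arm 2R (14887171 to 14889010, minus strand) and stood at 76.9, 63.3 and 61.7 CPM in group-housed and 138, 93.3 and 133 CPM in isolated males. The groups did not overlap (log2 fold change 0.85, SE 0.16, edgeR adjusted p = 0.0233), with differences of 0.84 in batch 1 and 0.83 in batch 2. The call was lost without group-housed replicate 0 (0.85, adjusted p = 0.0725) and without group-housed replicate 2 (0.83, adjusted p = 0.113), with 9.97e-06 to 0.27 over 19 alternatives. Of 72 tested P450 genes, 51 were positive with a median of 0.13, and 17 of the 19 tested Cyp6 genes were positive. Of the 22 tested Cyp4 genes 12 were positive, with a median of 0.03 and values from -2.28 to 0.62. Cyp309a1 stood at 80.0, 55.3 and 76.8 CPM against 107, 136 and 99.6 CPM (0.69, SE 0.17, edgeR adjusted p = 0.219; 0.0442 without isolated replicate 0 and 0.000767 to 1.00 over its alternatives). Cyp4ac2 lay the other way, at 59.3, 61.4 and 58.0 CPM against 54.4, 39.1 and 32.5 CPM (-0.52, SE 0.16, edgeR adjusted p = 0.725). Glutathione and UDP-glycosyl transferases, the conjugating enzymes of detoxification, were positive in 40 of 50 tested genes with a median of 0.20, and none passed in edgeR, DESeq2 or limma-voom. GstE11, for instance, stood at 3.0, 3.94 and 3.39 CPM against 6.30, 6.12 and 7.30 CPM, apart in all pairs (0.94, SE 0.38, edgeR adjusted p = 1.00).

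The storage proteins of the fat body did not move alike, and none passed in edgeR. Lsp2, a larval serum protein that adult fat body also makes, stood at 903, 606 and 504 CPM in group-housed and 1329, 1226 and 1099 CPM in isolated males (log2 fold change 0.90, SE 0.21, edgeR adjusted p = 0.169). Lsp1alpha stood at 386, 273 and 336 against 722, 506 and 429 CPM (0.71, SE 0.18, edgeR adjusted p = 0.255). Both had their groups apart, and both passed in DESeq2 (adjusted p 3.83e-05 and 0.00289; 3.83e-05 to 0.786 and 0.00289 to 1.00 over their alternatives). Lsp1beta, the most abundant of the 3 by CPM, stood at 4678, 4452 and 4097 against 4377, 4144 and 4231 CPM, with overlapping groups (-0.05, SE 0.26, edgeR adjusted p = 1.00). Of 20 tested fat body genes 7 were positive and the median was -0.10. That median turned to 0.07 without group-housed replicate 1 and to 0.06 without isolated replicate 1, and was -0.18 without group-housed replicate 2. The gene apolpp, which encodes the main lipoprotein of the hemolymph, had a log2 fold change of -0.13 (SE 0.28). Of the sugar-digesting enzymes, tobi, an alpha-glucosidase of the fat body, stood at 363, 198 and 222 against 524, 447 and 316 CPM (0.75, SE 0.18, edgeR adjusted p = 0.210). It passed in DESeq2 (0.00678) and in edgeR without isolated replicate 2 (0.0488; 0.00253 to 1.00 over its alternatives). The near-identical amylase genes Amy-p and Amy-d had log2 fold changes of 0.96 and 0.63 with overlapping groups, and 0.46 and 0.33 without isolated replicate 1. Amy-p passed without group-housed replicate 0, isolated replicate 0 or isolated replicate 2 (adjusted p 0.00178 to 0.00469; 3.07e-05 to 1.00 over its alternatives), and Amy-d without isolated replicate 2 (0.0324; 0.00306 to 1.00). CG1673, a branched-chain amino acid aminotransferase by annotation, stood at 122, 101 and 96.8 against 143, 186 and 177 CPM (0.66, SE 0.16, edgeR adjusted p = 0.210; 0.0418 without isolated replicate 0 and 0.00260 to 0.755 over its alternatives), again with the groups apart.

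The response of males was set against that of females in a fit of all 12 libraries. The difference between the responses passed for 45 of 9810 genes (0.459%), and in 44 of these (0.449%) the male value was the lower. For isolation in females, 364 genes (3.71%) passed in this fit of all 12 libraries, and for isolation in males 8 (0.0815%). All 6 genes that rose in males had a positive value in females, and 5 passed there. Of these 6, the difference between the sexes passed for CG10184. Its log2 fold change in females was 2.25 (SE 0.17), and the male minus female difference was -1.4 (SE 0.22, edgeR adjusted p = 0.00554). CG10621 had 1.69 in females (SE 0.13) with a difference of -0.74 (SE 0.18, edgeR adjusted p = 0.101), and PGRP-SD had 0.88 in females with a difference of 0.07 (SE 0.30, edgeR adjusted p = 0.991). DptB had 0.01 in females (SE 0.29), and its difference of 1.34 (SE 0.43) did not pass (edgeR adjusted p = 0.348).

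Among the 17 genes drawn in the plot of both sexes, the difference passed for 6. Gnmt had a female log2 fold change of 2.90 and a difference of -2.23 (SE 0.36, edgeR adjusted p = 0.00636). Lsp2 had 3.45 in females and a difference of -2.54 (SE 0.39, edgeR adjusted p = 0.00423), and tobi had 2.09 and -1.35 (SE 0.27, edgeR adjusted p = 0.0370). CG34166 had 3.26 in females and a difference of -2.61 (SE 0.28, edgeR adjusted p = 0.000181). In males it stood at 38.2, 45.3 and 53.2 CPM in group-housed and 66.8, 75.2 and 72.0 CPM in isolated libraries (0.66, SE 0.15, edgeR adjusted p = 0.124). In these genes the male values lay in the same direction as the female ones and were smaller.

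takeout (to), the secreted carrier protein of the juvenile hormone binding family that the study's title names, was the exception in direction. In males it stood at 596, 809 and 445 CPM in group-housed and 533, 572 and 425 CPM in isolated libraries, with overlapping groups. The fitted log2 difference was -0.27 (SE 0.22, edgeR adjusted p = 1.00), which turned to 0.02 without group-housed replicate 1. The female value was 2.80 (SE 0.34), and the male minus female difference was -3.08 (SE 0.46, edgeR adjusted p = 0.00636). Obp99b, an odorant binding protein gene of the head that is sex-biased like takeout, stood at 89.3, 68.4 and 48.6 against 133, 128 and 66.9 CPM in males (0.69, SE 0.22, edgeR adjusted p = 1.00; 0.38 without isolated replicate 1, and 0.90 with an adjusted p of 0.0263 without isolated replicate 2, in a range of 0.000777 to 1.00), with a difference of -2.94 (SE 0.45, edgeR adjusted p = 0.00636).

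**Figure D3:**
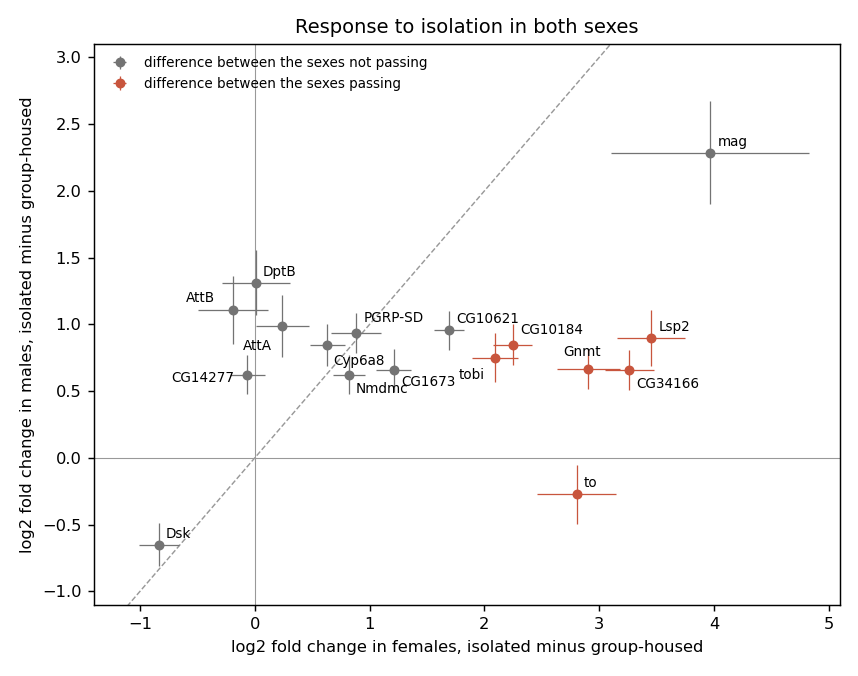
Log2 fold change on isolation in males against that in females, with standard errors, for 17 genes: the 6 that rose in males, the 9 next by p in that direction, Dsk and takeout (to). The dashed line marks equal values; the difference between the sexes passed for the 6 genes in colour, of which to has a negative value in males (-0.27) and a positive value in females (2.80).

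Most genes of smell and taste had positive values in males, and none passed in edgeR, DESeq2 or limma-voom. Of 31 tested odorant binding protein genes, whose products carry odorants in the fluid around sensory neurons, 26 were positive with a median of 0.27. Obp56h, whose knockdown in males is known to alter courtship, stood at 22.1, 19.3 and 23 CPM in group-housed and 32.7, 42.6 and 26.6 CPM in isolated males, with the groups apart (0.67, SE 0.20, edgeR adjusted p = 0.550; 0.44 without isolated replicate 1). Obp19b stood at 11.5, 6.50 and 11.1 against 15, 23.8 and 15 CPM (0.88, SE 0.28, edgeR adjusted p = 0.732; 0.59 without isolated replicate 1). Of 64 tested receptor genes 44 were positive with a median of 0.31, among them 22 of 28 odorant receptors, 8 of 9 gustatory receptors, 11 of 18 ionotropic receptors (median 0.23) and 4 of 10 pickpocket channels (median -0.14). The receptor Or46a stood at 4.06, 3.59 and 7.17 against 9.14, 10.6 and 11.2 CPM (1.05, SE 0.33, edgeR adjusted p = 0.718).

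The chemosensory values differed between the batches. The median difference over odorant binding protein genes was -0.02 in batch 1 and 0.43 in batch 2, and over receptor genes 0.01 and 0.36. Orco, the coreceptor that odorant receptors need, shows the same: 49.3 and 45.3 CPM in group-housed and isolated replicate 0, and 16.8 and 24.1 against 40.9 and 40.6 CPM in batch 2. Its log2 fold change of 0.59 became 0.35 without group-housed replicate 1, and 0.99 without either replicate 0, where it passed in edgeR (adjusted p 0.0381 without the group-housed and 0.0230 without the isolated one; 0.0230 to 1.00 over its alternatives). The summed level of the receptor genes was 482, 253 and 316 CPM in group-housed and 476, 421 and 363 CPM in isolated males. Both batch 1 libraries were high, and the group-housed libraries of batch 2 were the lowest. How much antennal tissue each pool of heads held was not measured.

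Neuropeptides and genes tied to social behaviour showed few differences. Dsk encodes drosulfakinin, a relative of cholecystokinin that acts in satiety and in male aggression and courtship. It stood at 47.1, 61.6 and 76.3 CPM in group-housed and at 38.7, 38.4 and 38.7 CPM in isolated males. The isolated libraries lay close together below all group-housed ones, and the log2 fold change of -0.65 (SE 0.16) did not pass (edgeR adjusted p = 0.218; 0.0442 without isolated replicate 0 and 0.0120 to 1.00 over its alternatives). The difference was -0.28 in batch 1 and -0.82 in batch 2. In females Dsk passed, with a value of -0.84 (SE 0.18, edgeR adjusted p = 0.0113). Its male minus female difference of 0.19 (SE 0.24) did not pass (edgeR adjusted p = 0.929). Of 37 tested neuropeptide genes 24 were positive with a median of 0.03, and none passed in edgeR, DESeq2 or limma-voom. Ilp5, an insulin-like peptide of the brain, stood at 1.73, 0 and 0.522 against 2.36, 3.19 and 3.25 CPM (1.98, SE 0.71, edgeR adjusted p = 1.00). The value was 3.42 without group-housed replicate 0 and 3.43 without isolated replicate 0, and the differences were 0.36 in batch 1 and 2.38 in batch 2. Ilp5 would not have passed the expression filter on its group-housed levels, so its direction is in part fixed by the filter. CNMa stood at 2.80, 1.71 and 4.30 against 1.18, 1.27 and 1.62 CPM (-1.15, SE 0.54, edgeR adjusted p = 1.00; -0.74 without group-housed replicate 2).

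Of 33 tested genes linked in the literature to social experience and aggression, 21 were positive, the median was 0.07, and none passed in edgeR, DESeq2 or limma-voom. Tk, the tachykinin neuropeptide that promotes male aggression, stood at 55.6, 83.2 and 94.3 CPM in group-housed and 63.5, 88.2 and 87.2 CPM in isolated males (0.05, SE 0.14, edgeR adjusted p = 1.00). Cyp6a20, a P450 known for its role in male aggression after social experience, stood at 17.6, 28.6 and 16.2 against 24.1, 19.6 and 23.9 CPM (0.13, SE 0.23, edgeR adjusted p = 1.00). In both the groups overlapped, and the sign of the value turned when single libraries were left out: Tk to -0.02 without either replicate 0, and Cyp6a20 to -0.04 without either replicate 0 or group-housed replicate 2. Clock genes had a median of -0.02 over 15 tested, with tim at 595, 272 and 732 against 423, 293 and 393 CPM (-0.53, SE 0.32; -0.04 without group-housed replicate 2 and -0.84 without group-housed replicate 1). Markers of neurons (median -0.05 over 19) and photoreceptors (-0.04 over 23) had medians near that of all genes. Few were positive, with 4 of 19 neuron and 4 of 23 photoreceptor markers, beside 49.5% of all genes. The medians of 83 ribosomal protein genes (-0.02, 36 positive) and 64 genes of the respiratory chain (0.01, 35 positive) were also near that of all genes. With single libraries left out, the medians of these 4 lists ran from -0.17 to 0.14.

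Chaperone genes lay below 0. Of 26 tested heat shock protein and chaperone genes 5 had a positive log2 fold change, the median was -0.15, and none passed in edgeR. In 7 of them every isolated library was below every group-housed one, a pattern found in 2.69% of all genes. Hsp83, the fly Hsp90, which holds signalling proteins in an active form, stood at 795, 942 and 922 CPM in group-housed and 592, 585 and 504 CPM in isolated males (log2 fold change -0.66, SE 0.20, edgeR adjusted p = 0.590), and it passed in DESeq2 (0.00530; 0.00530 to 0.877 over its alternatives). It overlaps CG14966 on the other strand. DnaJ-1, an Hsp40 co-chaperone, stood at 121, 113 and 128 against 98.3, 91.2 and 83.4 CPM (-0.40, SE 0.15, edgeR adjusted p = 1.00). Hsc70Cb, an exchange factor of Hsp70, stood at 234, 211 and 194 against 192, 179.8 and 157 CPM (-0.27, SE 0.15, edgeR adjusted p = 1.00). The summed level of the list was 5250, 5467 and 5045 CPM in group-housed and 4376, 4767 and 4312 CPM in isolated males, so that the groups were apart in the sum as well. The small heat shock proteins did not share this, with 3 of 5 positive.

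**Figure D4:**
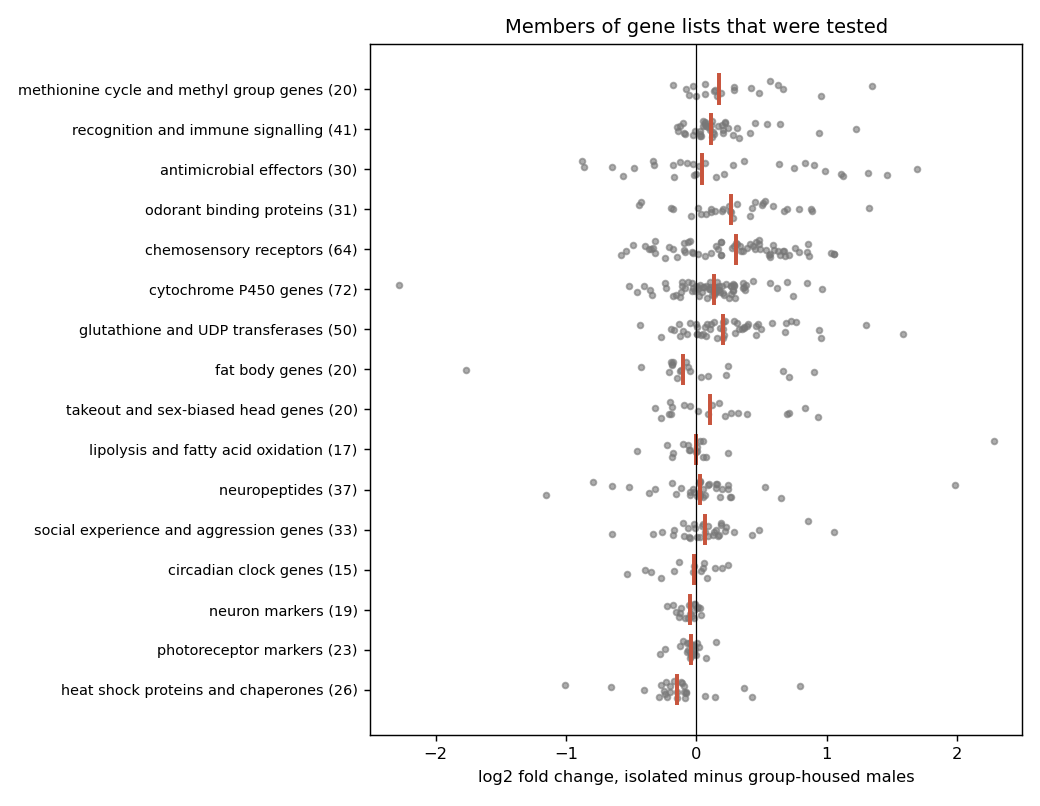
Log2 fold change in males of each tested member of 16 gene lists, with the number tested in brackets; each dot is a gene and the coloured bar the median of the list. The medians run from -0.15 (heat shock proteins and chaperones) to 0.31 (chemosensory receptors), beside -0.002 for all genes.

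The 8 genes that fell were low in group-housed males and close to 0 in isolated males, with 0 to 12 reads over the isolated group. They passed the expression filter only through the group-housed libraries, so a call could only be in the lower direction. CG14125, on arm 3L (11974905 to 11975810, plus strand), had 87, 30 and 26 reads in group-housed replicates 0, 1 and 2, or 5.79, 5.13 and 3.39 CPM, and no read in any isolated library. Against a limit of 3 counts over the isolated group (0.0899 CPM) it was at least 53.1-fold lower (edgeR adjusted p = 0.000740). Its 3 group-housed libraries were of similar level, and the call held with each of the 6 male libraries left out in turn. Its female log2 fold change was 0.67 (SE 1.38).

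In the other 7 lower genes, group-housed replicate 0 was far above its group. S-Lap2, a leucyl aminopeptidase of sperm that overlaps GAPsec on the other strand (arm 3L, 8619888 to 8622091, plus strand), stood at 39.5, 3.59 and 4.96 CPM in group-housed and 0.236, 0.382 and 0.609 CPM in isolated males. The fitted log2 difference was -4.98 (SE 0.72, edgeR adjusted p = 0.0233), and -3.19 without group-housed replicate 0 (adjusted p = 0.0887). CG3213 (arm 2L, 3517273 to 3519651, minus strand) stood at 20.8, 1.71 and 2.87 against 0.0788, 0.0637 and 0.406 CPM, with a fitted log2 difference of -5.72 (SE 0.79, edgeR adjusted p = 0.00355) and of -3.74 without that library (adjusted p = 0.229). CG31948 (arm 2L, 2415359 to 2416720, minus strand) stood at 15.8, 1.88 and 5.35 against 0.158, 0.127 and 0.609 CPM (-4.89, SE 0.73, edgeR adjusted p = 0.00648; -3.68 and 0.0725 without it). In each of these the group-housed libraries of batch 2 were also above all isolated ones, at a few CPM. All 3 calls were lost without group-housed replicate 2 too, at log2 fold changes of -5.05, -5.66 and -4.60 and adjusted p of 0.322, 0.0573 and 0.119, and that of CG31948 without isolated replicate 1 (-4.99, adjusted p = 0.0757).

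The remaining 4 rested on few reads outside that library. wa-cup, a gene transcribed late in spermatid development (arm 3R, 7420765 to 7423057, plus strand), had 123, 7 and 11 reads in group-housed and 1, 0 and 1 in isolated males (edgeR adjusted p = 0.00683). CG12860 (arm 2R, 14665641 to 14666817, minus strand) had 264, 9 and 9 reads against 2, 1 and 0 (edgeR adjusted p = 0.000740). CG2127 (arm 2R, 8368344 to 8370038, minus strand) had 284, 10 and 12 reads against 0, 3 and 0 (edgeR adjusted p = 0.0161). CG33340 (arm 3R, 24363138 to 24364289, plus strand), which overlaps CG17784 and CG33339, had 187, 10 and 17 reads against 1, 4 and 0 (edgeR adjusted p = 0.00752). The groups were apart in all 4. Without group-housed replicate 0, wa-cup and CG12860 fell below the filter, and CG2127 and CG33340 had log2 fold changes of -3.45 (adjusted p = 0.476) and -3.35 (adjusted p = 0.381). Without group-housed replicate 2 the calls of wa-cup (-5.58, adjusted p = 0.0573), CG2127 (-5.96, adjusted p = 0.157) and CG33340 (-4.90, adjusted p = 0.106) were lost. Without isolated replicate 0 those of wa-cup (-4.36, adjusted p = 0.0926) and CG33340 (-3.34, adjusted p = 0.0521) were lost, and without isolated replicate 1 that of wa-cup (-5.38, adjusted p = 0.0743).

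In the 7 lower genes other than CG14125, the library with the highest level was also the one with the highest sum of testis and male reproductive tract markers, and by a wide margin. S-Lap2 is itself one of these markers. Of the 89 list members 15 passed the expression filter, some of them only through their level in group-housed libraries, so their direction is in part fixed by the filter. The 87-marker sum was lower in every isolated library (25.0 to 36.9 CPM) than in the group-housed libraries of batch 2 (42.6 and 76.3 CPM) as well. Acp36DE, an accessory gland protein of seminal fluid, had 659, 2 and 23 reads in group-housed and 1, 0 and 0 in isolated males, and the accessory and ejaculatory bulb protein Ebp had 1599, 1 and 4 against 16, 4 and 20. The sperm chromatin gene Mst77F stood at 8.79, 2.57 and 2.22 against 0.945, 1.40 and 1.42 CPM (-1.65, SE 0.57, edgeR adjusted p = 0.943), and its value was -0.75 without group-housed replicate 0 and without isolated replicate 0. Over their alternatives the 7 lower genes other than CG14125 had adjusted p from 5.88e-20 to 1.00. The part of tissue from outside the head in the lower genes was not tested.

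CG34324, CG34220 and Muc68D were not called in edgeR with all 6 libraries, although all group-housed libraries were far above all isolated ones. CG34220 and Muc68D were chosen after their values were seen. Like the lower genes, all 3 passed the expression filter only through the group-housed libraries, so a call could only be in the lower direction. CG34324 stood at 37.0, 46.5 and 10.7 CPM in group-housed and 0.236, 0.0637 and 0.406 CPM in isolated males (log2 fold change -7.34, SE 0.90, edgeR adjusted p = 0.108). It passed in 11 of 19 alternatives, with adjusted p from 9.76e-28 to 0.448: among them DESeq2 (4.14e-08), the fit of all 12 libraries (8.55e-05), and edgeR without group-housed replicate 0 (2.97e-25), 1 (2.89e-09) or 2 (9.40e-08) or isolated replicate 0 (4.55e-10). CG34220 stood at 107, 219 and 31.2 against 0.158, 1.02 and 2.03 CPM (-7.10, SE 1.39, edgeR adjusted p = 1.00). It passed in 3 of 19 alternatives, DESeq2 (4.60e-07) and edgeR without group-housed replicate 2 (9.40e-08) among them. Muc68D, a mucin, had 862, 342 and 41 reads in group-housed and 4, 0 and 0 in isolated males (edgeR adjusted p = 1.00). It passed in 6 of 19 alternatives, with adjusted p from 4.30e-10 to 1.00: among them DESeq2 (0.000108) and edgeR without group-housed replicate 1 (4.30e-10) or 2 (4.61e-06). Unlike the lower genes other than CG14125, all 3 were high in group-housed replicate 1 as well as in replicate 0, and their levels varied several fold within the group-housed libraries. The fatty acid synthase genes FASN2 and FASN3 were high in group-housed replicate 0 alone, at 71.8 and 66.7 CPM there and 3.19 to 8.74 CPM in every other male library.

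**Figure D5:**
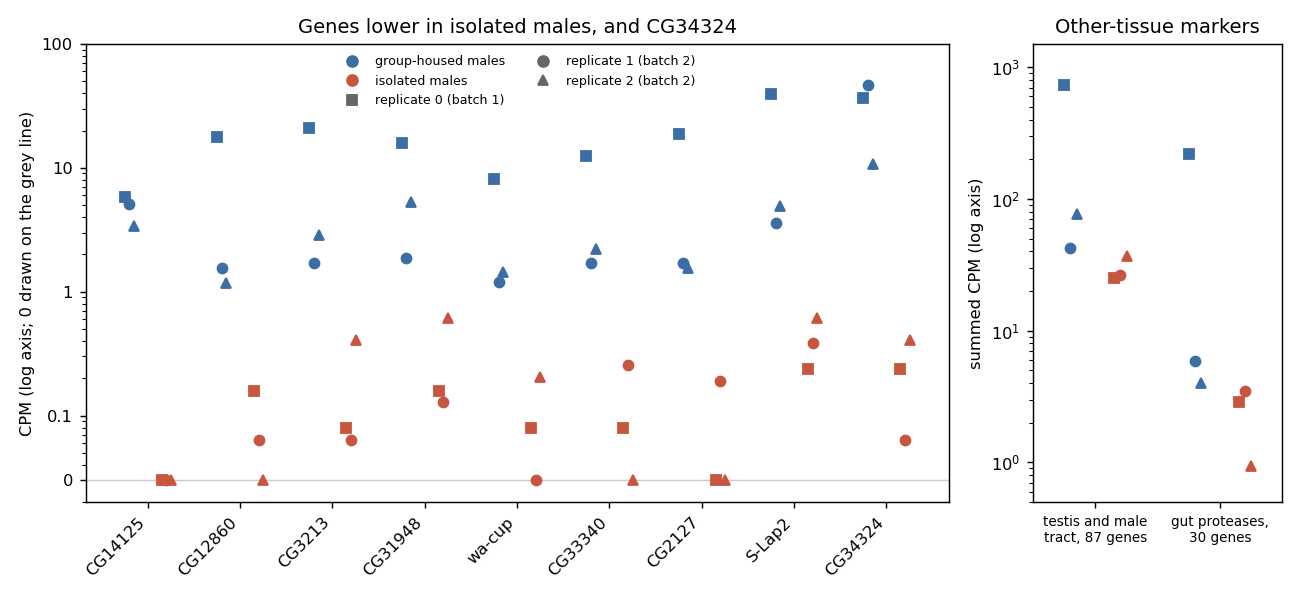
Left, level (CPM, log axis, with 0 on the grey line) in each male library of the 8 genes that were lower in isolated males and of CG34324, which did not pass; right, summed CPM of 87 markers of testis and male reproductive tract and of 30 gut proteases. Group-housed replicate 0 (blue square) is the highest library for 7 of the 8 genes by a wide margin and for both marker sums (732 and 219 CPM), while the 3 group-housed libraries lie close together for CG14125 (3.39 to 5.79 CPM).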

How the data were processed

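The authors deposited raw counts as whole numbers; the table has 24228 features, and 17856 of them have an FBgn gene identifier. Tools listed in the submitters' processing notes, with no role, are edgeR 4.4.1, HTSeq 2.0.5, Picard 2.27.5, R 4.4.0 and STAR 2.7.10b. The sources used here give no build, annotation release or strand setting. Lines that name no gene held 10.26% to 13.21% of each male column and were left out. Positions were looked up by gene identifier in the BDGP6.54 annotation, where 17816 of the identifiers are listed.

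Counts of the 6 male libraries were filtered with filterByExpr (minimum count 10, minimum total 15), scaled by TMM and fitted in edgeR 4.0.16 (R 4.3.3) by a robust quasi-likelihood model with housing and batch, which left 3 residual degrees of freedom. Library size was the total over all named features. P-values were adjusted by the Benjamini-Hochberg method over the 9774 genes tested, with a threshold of 0.05. The difference between the sexes was a contrast in a fit of all 12 libraries with batch, and female values come from that fit. Batch differences are of log2(CPM + 0.5), 1 library against 1 in batch 1 and 2 against 2 in batch 2. CPM of genes use TMM-scaled library sizes, and sums over lists use library totals. Intervals and limits from counts cover counting error only. Replicates differed beyond sampling noise and were each counted. The code was tested on simulated data.

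Genes were named by a rule: all that pass, the next by p up to 15 in each direction at a mean log2 CPM of at least 1, takeout, up to 4 members of each gene list with the smallest p, and, for the difference between the sexes, the 5 smallest p in each direction among the first. Members named to show a list's spread or a library that stands apart were picked after seeing their values. The members, the gene lists and the tests were chosen with earlier results of these data known. Same-numbered replicates share a batch only for number 0, and the correlation of their deviations was not above 0.1 in every pair, so numbers were not used as pairs. Alternatives were other scalings and filters, DESeq2 1.42.0, limma-voom (limma 3.58.1), other batch terms, other sets of libraries and leaving out each library in turn.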

Additional observations from a re-analysis of the deposited data

Results flagged for a closer look

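The response to isolation differed between males and females, by the test of the difference in all 12 libraries, for 8 of the genes described above. The male minus female log2 difference was -1.4 for CG10184, -2.23 for Gnmt, -2.61 for CG34166, -2.54 for Lsp2, -1.35 for tobi, -3.75 for Lsp1alpha, -2.94 for Obp99b and -3.08 for takeout (to). In males takeout had a negative value, and the other 7 had positive values that were smaller than in females. The search for single libraries far from their group was made for groups of at least 4 and not for these groups of 3.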

How the results depend on the processing

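The count of 14 genes in males was 1 with library totals in place of TMM scaling, 301 with no filter on low counts (51 higher, 250 lower), 33 with DESeq2 (15 higher), 33 with limma-voom (7 higher), 3 with no batch term, 23 without robust estimation (8 higher) and 8 in the fit of all 12 libraries (2 higher). It stayed within 1.5 times under RLE scaling (14), a minimum of 1 CPM in 3 libraries (14), all named features (14), batch 2 alone (19, of which 14 higher and 7 shared with the 14) and, chosen after seeing the data, without group-housed replicate 0 and with no batch term (10, of which 6 shared). Leaving out each library in turn gave 13 to 76. A fit with the replicate number as a block called 17, 13 of them shared; the numbers pair no samples beyond batch (correlations 0.377, -0.172 and 0.0553 for numbers 0, 1 and 2). The 45 genes whose response differed between the sexes became 15 with library totals, which shifted the median difference of all genes by 0.26 on the log2 scale, 83 with no filter, 142 with DESeq2, 76 with limma-voom, 28 with no batch term, 71 with the replicate block and 12 in batch 2 alone; leaving out each male library gave 33 to 61. With library totals alone 0 of the 14 genes were still called, and the 1 call there was CG34324 (edgeR adjusted p = 0.00785). The call for CG10621 was lost at an edgeR adjusted p of 0.05 after rounding (5.25e-07 to 0.05 over its 19 alternatives). So was that for CG14125 (8.14e-11 to 0.05). Of 1536 pairs of a named gene and an alternative, 9 changed sign: takeout (to) at 0.0214 without group-housed replicate 1 (-0.4749 to 0.0214 with each library left out); Cyp6a20 at -0.0388 in batch 2 alone, -0.0415 without group-housed replicate 0, -0.038 without group-housed replicate 2 and -0.0403 without isolated replicate 0 (-0.0415 to 0.4299); and Tk at -0.0155, -0.0178, -0.0164 and -0.16 in batch 2 alone, without group-housed replicate 0, without isolated replicate 0, and without group-housed replicate 0 and no batch term (-0.0178 to 0.1211 with each library left out). Leaving out either replicate 0 with the batch term kept rests the contrast on batch 2. The causes were not tested. The 8 list sums tried kept their direction. Here the testis and male tract sum is of all 89 markers, EbpIII and gdl included, and not of the 87 used above. In the 89-marker sum isolated replicate 1 (476 CPM) was above both group-housed libraries of batch 2 (428 and 443 CPM). With each library left out, the difference in summed CPM ran from -308.9 to -28.84 for testis and male tract markers (-213.1 with all libraries, -28.84 without group-housed replicate 0), 72.43 to 269.7 for antimicrobial effectors (192.5), 472.7 to 952.6 for recognition and immune signalling (635.6), 114.0 to 520.9 for odorant binding proteins (324.1), 20.96 to 135.4 for chemosensory receptors (69.59), -909.6 to -662.2 for chaperones (-768.6), 367.2 to 744.3 for methionine cycle genes (578.7) and 201.3 to 526.2 for transferases (334.4). Depth is a limit for the lower genes, where 3 counts over the isolated group are 0.0899 CPM, beside their dependence on group-housed replicate 0.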
